A study of Homo sapiens with 6 samples.

Results

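The 10 acyl-CoA synthetase genes *ACSL1*, *ACSL3*, *ACSL4*, *ACSL5*, *ACSL6*, *ACSS1*, *ACSS2*, *ACSS3*, *ACSF2* and *ACSF3* were selected by gene symbol from the 20824 genes of the table of RPKM values (reads scaled by transcript length and by the depth of the library). They belong to the long-chain (ACSL), short-chain (ACSS) and further (ACSF) groups of the family, and all 10 were found. The family was taken up because several members had lower values with both TBX3 isoforms than with the empty vector. The differences from the empty vector are therefore given as a description without a test, and only the direct comparison of the isoforms, which the choice did not use, was tested for the members. RNA-Seq had been done on 21NT, an established breast cancer line that serves as a model of ductal carcinoma *in situ*, after stable transfection. The 3 lines carried TBX3iso1, TBX3iso2 or the vector without insert (EV), and 2 libraries were made from each. TBX3 is a T-box transcription factor, and its isoforms arise by alternative splicing. All 3 lines grew in the same medium with serum, insulin, EGF, hydrocortisone and the selection agent G418. Each condition is 1 pool of G418-resistant cells, that is 1 transfected line, and nothing in the labels says that its libraries came from separate cultures, so the SDs and p-values measure the spread between these libraries only.

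Acyl-CoA synthetases join a fatty acid to coenzyme A at the expense of ATP. Only the resulting acyl-CoA can be oxidized, elongated or built into triglyceride and phospholipid, so these enzymes stand at the entry to nearly every route of fatty acid metabolism. Members differ in the chain length they prefer and in their place in the cell: ACSL enzymes sit mainly on the endoplasmic reticulum, mitochondria and lipid droplets, ACSS enzymes handle acetate and propionate, and ACSF2 and ACSF3 are mitochondrial. In breast epithelium, fatty acids are both made for membranes and, during lactation, secreted as milk fat.

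The libraries held between 43176600 and 54512400 alignments. *TBX3*, a check of the labels, was 13.1 and 11.4 RPKM with TBX3iso1 and 17.5 and 15.5 RPKM with TBX3iso2. Each isoform library was thus above the EV libraries (8.24 and 8.52 RPKM). The TBX3iso1 mean (12.3 RPKM) was under 1.5-fold above that of EV (8.38 RPKM). Values per gene do not show which isoform a line carries. The isoform lines also differed in *TBX3* level, and the part of this level in any difference between the isoforms was not tested. All 7 epithelial markers examined were present, and they summed to 2867 to 2963 RPKM in EV, 2400 to 2660 RPKM with TBX3iso1 and 2799 to 3176 RPKM with TBX3iso2. Among them *CDH1* (145 RPKM in EV, 89.2 and 102 RPKM in the isoform lines), *KRT19* (680 RPKM, then 459 and 414 RPKM) and *CLDN4* (63.6 RPKM, then 45.9 and 49.9 RPKM) were lower in the means of both isoform lines. *KRT7* (567 RPKM, then 587 and 725 RPKM) and *KRT18* (604 RPKM, then 610 and 747 RPKM) were not. Adipocyte markers, which could matter for genes of lipid metabolism, were near 0: the 2 of 4 in the table (*PLIN1* and *CIDEC*) summed to 0.425 to 0.479 RPKM in EV and to 0.144 RPKM or less in the isoform lines. Of the leukocyte markers, 3 of 4 were in the table, and their sum was 9.45 to 10.7 RPKM in EV and 2.23 to 2.61 RPKM in the isoform lines. That sum was nearly all *CD14*, with *PTPRC* at 0.00387 RPKM in EV. For the 4 endothelial markers the sum was 7.24 to 7.60 RPKM in EV and 1.25 to 1.43 RPKM in the isoform lines, nearly all of it *PECAM1*, with *CDH5* and *VWF* at 0.0743 and 0.0154 RPKM. The 5 fibroblast markers summed to 4.57 to 4.83 RPKM in EV and to 7.11 to 8.65 RPKM in the isoform lines, most of it *COL1A1*. *CD14*, *PECAM1*, *CDH1*, *KRT19* and *CLDN4* were lower in both isoform lines, as most synthetases were, and their part in the results was not tested. In such bulk RNA, fewer cells of a kind and less RNA per cell cannot be told apart.

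RPKM values are scaled to transcript length, so levels can be compared roughly between genes. The annotation behind these lengths is not given, and the spread between libraries does not cover errors between genes. Close ranks, such as the first 2 in EV, are therefore not settled. In EV, *ACSL1* had the highest RPKM of the members (44.7 ± 0.121 RPKM, SD, n = 2), followed by *ACSL3* (42.2 ± 0.168 RPKM). Then came *ACSS2* (26.3 ± 0.0876 RPKM), *ACSF2* (19.8 ± 0.744 RPKM) and *ACSL5* (14.996 ± 0.201 RPKM). *ACSL4* (8.85 ± 0.141 RPKM), *ACSS3* (8.14 ± 0.238 RPKM) and *ACSF3* (8.11 ± 0.517 RPKM) were lowest among the expressed members. The libraries of neighbours in this order did not overlap, except those of *ACSS3* and *ACSF3*. In the TBX3iso1 line *ACSL3* led, *ACSS2* came next, and *ACSL5* and *ACSL1* overlapped in the following places. With TBX3iso2 the leading pair was the same, and *ACSL4* could not be separated from *ACSF2*, nor *ACSF3* from *ACSL5*. *ACSL6*, a form best known from brain, and *ACSS1*, the mitochondrial acetyl-CoA synthetase, were close to absent, at no more than 0.00981 and 0.0242 RPKM in any library. With the length of the annotated main transcript, these maxima correspond to about 3.49 and 4.48 reads, too few to compare the lines. The other 8 members passed the filter on low values (a mean of at least 0.5 RPKM, as 12805 genes did), and their values correspond to between about 631 and 12805 reads per library.

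**Figure D1:**
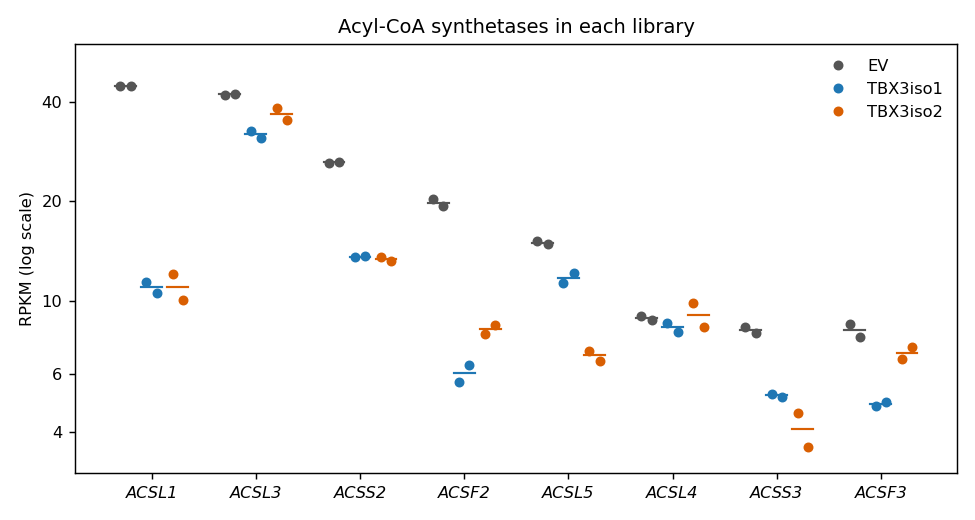
RPKM (log axis) of the 8 expressed acyl-CoA synthetases in each library of 21NT cells with EV, TBX3iso1 or TBX3iso2, where points are libraries and horizontal lines are means of 2 libraries. *ACSL1* lies at 44.6 and 44.8 RPKM in EV and between 10.0 and 12.0 RPKM in the isoform lines, whereas the *ACSL4* values stay between 8.03 and 9.84 RPKM in all 6 libraries.

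*ACSL1* activates long-chain fatty acids for both oxidation and triglyceride synthesis. It occupies positions 185676749 to 185747972 of chromosome 4 (build GRCh37, minus strand), with 21 exons in its main transcript. Its level was 44.6 and 44.8 RPKM in the EV libraries, 11.4 and 10.5 RPKM with TBX3iso1, and 12.0 and 10.0 RPKM with TBX3iso2. All 4 isoform libraries thus lay far below EV, and the libraries of the isoforms overlapped each other. On the scale of log2(RPKM + 0.1), used for all fold changes here, the differences from EV were -2.02 with either isoform (standard error 0.0988), or 4.06-fold and 4.05-fold lower, the largest of any member. Between the isoforms, the log2 difference was 0.00 with a 95% interval of -0.23 to 0.23 (limma adjusted p = 0.99), so a difference of 1.5-fold lies outside the interval.

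*ACSL3*, which acts on the endoplasmic reticulum and on forming lipid droplets, lies on chromosome 2 from 223725660 to 223809357 on the plus strand. The EV libraries gave 42.1 and 42.4 RPKM, the TBX3iso1 libraries 32.8 and 31.1 RPKM, and the TBX3iso2 libraries 38.4 and 35.3 RPKM. The lines did not overlap, but the differences from EV were small, at -0.40 and -0.20 on the log2 scale (standard error 0.0743). Between the isoforms the log2 difference of 0.20 (95% interval 0.03 to 0.38) did not pass (limma adjusted p = 0.11). *ACSL3* had the highest RPKM of the members in both isoform lines. *ACSL4* prefers arachidonic acid and is known for its role in ferroptosis, a form of cell death driven by lipid peroxidation. This gene lies on the X chromosome from 108867473 to 108976632 on the minus strand. Its libraries read 8.95 and 8.75 RPKM in EV, 8.57 and 8.03 RPKM with TBX3iso1, and 9.84 and 8.28 RPKM with TBX3iso2, with TBX3iso2 on either side of EV. The log2 differences from EV were -0.09 and 0.03 (standard error 0.101), the smallest among the expressed members. Their sign was not stable: the first was 0.01 after quantile normalization, and the second ranged from -0.09 to 0.15 over the alternatives. Between the isoforms it was 0.12 (95% interval -0.11 to 0.35, limma adjusted p = 0.471).

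*ACSL5*, found on mitochondria and the endoplasmic reticulum, lies on chromosome 10 from 114133874 to 114188137 on the plus strand. Of the 8 expressed members, it was the 1 that met both thresholds (on p and on fold) between the isoforms. Its level was 15.1 and 14.9 RPKM in EV, 11.3 and 12.1 RPKM with TBX3iso1, and 7.05 and 6.57 RPKM with TBX3iso2, so the 3 lines formed separate steps. Against EV the log2 differences were -0.36 with TBX3iso1 and -1.13 with TBX3iso2 (standard error 0.0811). TBX3iso2 was 1.71-fold lower than TBX3iso1, a log2 fold change of -0.77 (95% interval -0.96 to -0.58, limma adjusted p = 0.00146). The call held under all 16 alternatives tried, with values from -0.83 to -0.70. *ZDHHC6*, which overlaps *ACSL5* on the other strand, averaged 18.8 ± 1.39 RPKM (SD, n = 2) in the EV line, 23.8 ± 0.155 RPKM in the TBX3iso1 line and 22.8 ± 1.198 RPKM in the TBX3iso2 line. Against EV its libraries thus lay on the other side from those of *ACSL5*. Between the isoforms its nearest libraries almost met, at 23.73 RPKM with TBX3iso1 and 23.69 RPKM with TBX3iso2, so no direction is read from them. Its part in the *ACSL5* values was not tested.

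*ACSS2* makes acetyl-CoA from acetate in the cytosol and nucleus, where it feeds lipid synthesis and histone acetylation. The gene lies on chromosome 20 from 33459949 to 33515765 on the plus strand. Levels were 26.2 and 26.3 RPKM in EV, 13.5 and 13.6 RPKM with TBX3iso1, and 13.5 and 13.2 RPKM with TBX3iso2. Both isoform lines were lower by about the same amount, with log2 differences of -0.95 and -0.97 (standard error 0.0679). From TBX3iso1 to TBX3iso2 the log2 difference was -0.02 with a 95% interval of -0.18 to 0.14 (limma adjusted p = 0.863). *GGT7* overlaps *ACSS2* on the opposite strand and was also lower, at 3.44 ± 0.0393 RPKM (SD, n = 2) in the EV line, 2.004 ± 0.0391 RPKM in the TBX3iso1 line and 1.59 ± 0.148 RPKM in the TBX3iso2 line. The libraries were stranded, but the sources do not say whether the authors counted by strand, and the part of *GGT7* in the *ACSS2* values was not tested.

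*ACSS3*, a mitochondrial enzyme with a preference for propionate, lies on chromosome 12 from 81330193 to 81654989 on the plus strand. It read 8.30 and 7.97 RPKM in EV, 5.22 and 5.10 RPKM with TBX3iso1, and 4.56 and 3.59 RPKM with TBX3iso2. Every isoform library was below EV, and the TBX3iso2 libraries were lowest and furthest apart. The log2 differences from EV were -0.65 and -0.99 (standard error 0.121). The TBX3iso1 value lay near 1.5-fold and was under it with 1 RPKM added before the log (-0.57) and with quantile normalization (-0.53). Between the isoforms the log2 difference was -0.34 with a 95% interval of -0.62 to -0.06, which did not pass (limma adjusted p = 0.102).

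*ACSF2*, a mitochondrial enzyme for medium-chain fatty acids, lies on chromosome 17 from 48503519 to 48552206 on the plus strand. Its values were 20.3 and 19.3 RPKM in EV, 5.68 and 6.39 RPKM with TBX3iso1, and 7.93 and 8.45 RPKM with TBX3iso2. After *ACSL1* it had the largest differences from EV, with log2 differences from EV of -1.70 and -1.26 (standard error 0.0895). *ACSF3* activates malonate in mitochondria and so supplies malonyl-CoA for fatty acid synthesis there. It lies on chromosome 16 from 89154783 to 89230529 on the plus strand. The levels were 8.48 and 7.75 RPKM in EV, 4.78 and 4.94 RPKM with TBX3iso1, and 6.64 and 7.23 RPKM with TBX3iso2, with log2 differences from EV of -0.73 and -0.22 (standard error 0.0921). Both ACSF genes were higher with TBX3iso2 than with TBX3iso1, by 0.44 (95% interval 0.23 to 0.64, limma adjusted p = 0.0184) for *ACSF2* and by 0.50 (0.29 to 0.72, adjusted p = 0.012) for *ACSF3* on the log2 scale. These differences passed the threshold on p but were under 1.5-fold.

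**Figure D2:**
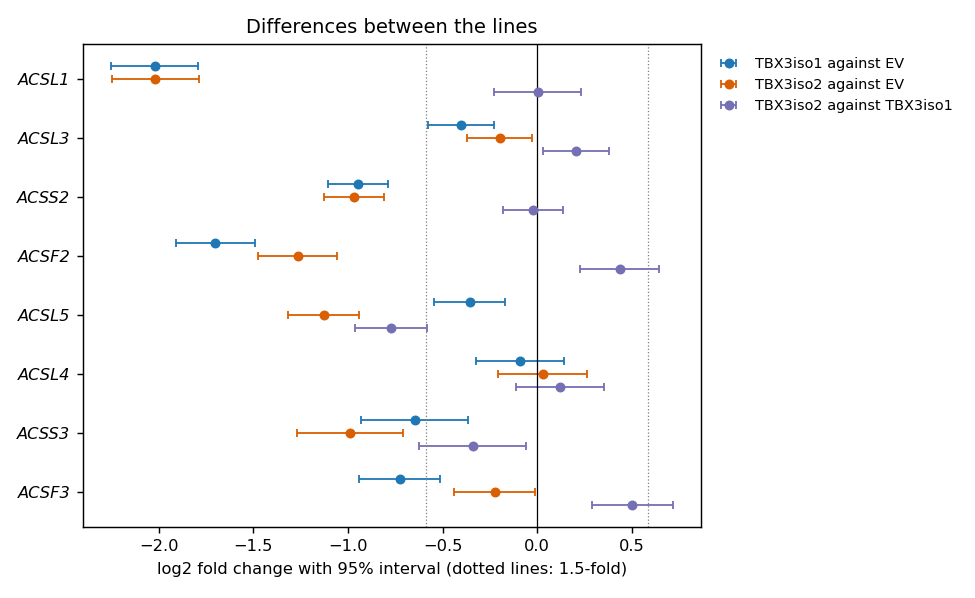
Log2 fold changes (horizontal axis) of the 8 expressed acyl-CoA synthetases in 3 comparisons, with 95% intervals from the limma model over 6 libraries. *ACSL1*, *ACSS2*, *ACSS3* and *ACSF2* lie left of the 1.5-fold line against EV with either isoform, and *ACSL5*, at -0.77, is the member left of that line between the isoforms.

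In the means, 5 of the 8 expressed members were over 1.5-fold lower with TBX3iso1 than in EV (*ACSL1*, *ACSS2*, *ACSS3*, *ACSF2* and *ACSF3*), where 14.7% of the 12805 genes were. With TBX3iso2 this held for 5 members (*ACSL1*, *ACSL5*, *ACSS2*, *ACSS3* and *ACSF2*), beside 12.9% of all genes. In neither comparison was any of the 8 over 1.5-fold higher, beside 7.71% and 9.2% of all genes. *ACSL1*, *ACSS2*, *ACSS3* and *ACSF2*, 4 members, were over 1.5-fold lower in both comparisons, which share the EV libraries. All 8 had both TBX3iso1 libraries below those of EV, which held for 44.1% of all genes, while 34.3% had them above and 78.4% did not overlap. With TBX3iso2, 7 lay below and *ACSL4* overlapped, beside 37.2% below, 37.5% above and 74.7% not overlapping over all genes. Since the members were chosen with these differences known, nothing is read from the counts. The median log2 difference of the 8 members was -0.69 with TBX3iso1 and -0.98 with TBX3iso2, beside -0.05 and -0.00206 over all genes tested.

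A gene was called differentially expressed at a Benjamini-Hochberg adjusted p under 0.05 together with a change of over 1.5-fold. Between the isoforms, 1 of the 8 members was, where 6.29% of all genes tested were. The median log2 difference of the members was 0.06, beside 0.05 over all genes. Of the 8, 3 (*ACSL5*, *ACSS2* and *ACSS3*) had both TBX3iso2 libraries below those of TBX3iso1 and 3 (*ACSL3*, *ACSF2* and *ACSF3*) had them above. Over all genes 20.1% lay below, 33.4% above and 53.5% did not overlap. Among all genes, 444 were higher and 361 lower between the isoforms, which median-ratio scaling turned to 344 higher and 447 lower.

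The lines differed in the makeup of the family as well as in its total. Summed over the 10 genes, the RPKM was 174 and 172 in the EV libraries, and 93.2 and 91.8 with TBX3iso1. For TBX3iso2 it was 96.3 ± 5.16 (SD, n = 2). The mean sum was 46.6% lower than in EV with TBX3iso1 and 44.4% lower with TBX3iso2, and *ACSL1* made up 41.9% and 43.9% of these differences. The 5 ACSL genes summed to 111 RPKM in the EV line, 62.9 RPKM in the TBX3iso1 line and 63.7 RPKM in the TBX3iso2 line. For the 3 ACSS genes the sums were 34.4, 18.7 and 17.5 RPKM, and for both ACSF genes 27.9, 10.9 and 15.1 RPKM. Every subgroup was thus lower in the isoform lines, and ACSF alone had a higher sum with TBX3iso2 than with TBX3iso1 beyond the SDs (10.9 ± 0.611 and 15.1 ± 0.792 RPKM, n = 2). *ACSL1* held 25.8% ± 0.288 (SD, n = 2) of the sum in EV, 11.8% ± 0.522 with TBX3iso1 and 11.4% ± 0.86 with TBX3iso2. *ACSL3* went from 24.4% ± 0.303 to 34.5% ± 0.895 and 38.3% ± 0.192. The ratio of *ACSL1* to *ACSL3* within a library is not touched by scaling a library with a single factor. It was 1.06 in both EV libraries, 0.347 and 0.338 with TBX3iso1, and 0.313 and 0.283 with TBX3iso2. The ratio of *ACSL5* to *ACSL3* was 0.359 and 0.351 in EV, 0.344 and 0.39 with TBX3iso1, and 0.184 and 0.186 with TBX3iso2. By this measure the TBX3iso1 line stood with EV and the TBX3iso2 line apart from both. *ACSS2*, by contrast, kept a similar share in each line, at 15.2%, 14.7% and 13.9% of the sum.

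**Figure D3:**
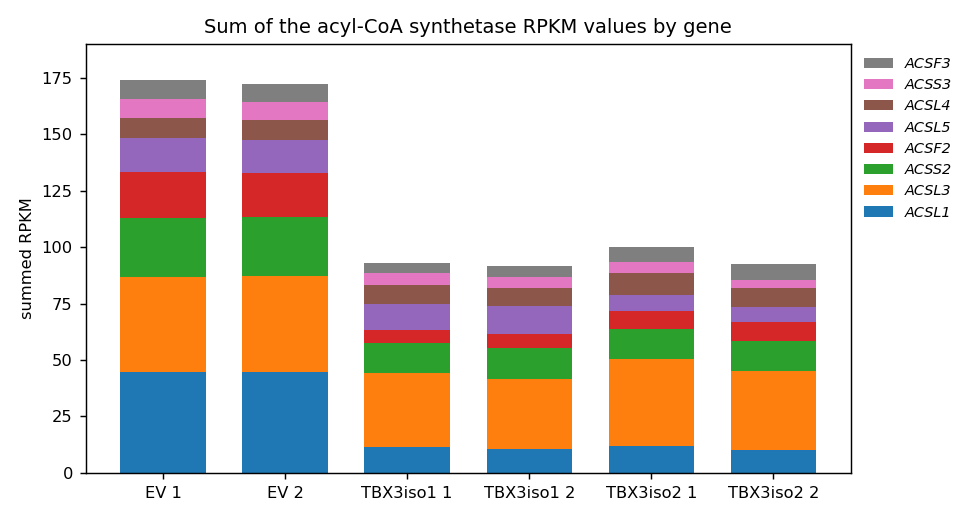
Summed RPKM of the acyl-CoA synthetases (vertical axis) in each library, stacked by gene. The bars of EV reach 174 and 172 RPKM and those of the isoform lines average 92.5 and 96.3 RPKM, and the *ACSL1* block differs most between EV and the other lines.

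T-box factors such as TBX3 bind T-box elements in DNA, and the genome upstream of the members' starts was searched for the core GGTGTGA on either strand. Starts are those of the canonical GENCODE transcripts on GRCh37, and the 1000 bases before each were searched in 16086 protein-coding genes of the table. The core occurred in 14.6% of these windows, and in those of 5 of the 10 members, of which *ACSS2*, *ACSS3* and *ACSF2* are described. *ACSL1*, with the largest difference from EV, had no match in this window. In the 250 bases next to the start, 0 of 10 members and 2.39% of all windows held the core GGTGTGA. Only this exact string was searched. The T-box motif that the paper reports within *SNAI2* has a different core, which this search would miss. A window without a match can therefore still hold another form of the element, and other forms were not searched over all windows. The 250 bases before the *ACSS3* start hold TGACACC, the reverse complement of GGTGTCA within the *SNAI2* motif. How often that string occurs in other windows was not counted, and its part in the *ACSS3* values was not tested. The paper lists *ACSS3* among genes with a T-box element where its ChIP-array placed both isoforms at overlapping sites. A match of letters is a description and not a binding site. The matches of these 3 genes are shown with the bases around them, on the strand of the gene, with the core (read here as its reverse complement) in capitals. They lie at chr20:33464130-33464176 (265 bases upstream, in an intron of longer *ACSS2* transcripts), chr12:81470858-81470894 (990 bases upstream, in an *ACSS3* intron) and chr17:48502808-48502854 (751 bases upstream, between genes).
ACSS2: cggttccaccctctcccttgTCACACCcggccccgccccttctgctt
ACSS3: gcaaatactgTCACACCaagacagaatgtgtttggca
ACSF2: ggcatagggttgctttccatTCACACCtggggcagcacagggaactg

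*ACSL5* differed from the other members in the makeup of its promoter. Its 250 bases upstream of the start had a GC content of 42.4% and a ratio of observed to expected CpG of 0.359. The other 9 members had 60.8% to 83.6% GC and ratios of 0.522 to 1.15, and the medians over all 16086 genes were 64.8% and 0.787. The *ACSL5* stretch, chr10:114133624-114133873 on the plus strand, is shown because *ACSL5* is the member that differed between the isoforms. Whether the promoter has a part in that difference was not tested.
ACSL5: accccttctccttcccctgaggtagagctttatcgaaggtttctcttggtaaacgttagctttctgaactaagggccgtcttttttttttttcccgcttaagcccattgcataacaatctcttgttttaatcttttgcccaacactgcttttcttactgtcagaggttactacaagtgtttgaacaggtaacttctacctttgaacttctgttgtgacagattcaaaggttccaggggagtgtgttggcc

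The 5 genes whose log2 profile over the 6 libraries lay nearest to that of *ACSL1*, by Euclidean distance after centring, were *MTUS1* (distance 0.148), *ELF3* (0.156), *SEMA5A* (0.205), *RASGRF1* (0.24) and *LOC100507642* (0.255). *ELF3*, an epithelial transcription factor, was also similar in level, with 51.2 ± 1.68 RPKM (SD, n = 2) in the EV line, 11.4 ± 0.541 RPKM in the TBX3iso1 line and 12.0 ± 2.10 RPKM in the TBX3iso2 line. Within the family, the nearest member to *ACSL1* was *ACSF2*, at a distance of 0.822, and 160 other genes lay nearer. Among the members, *ACSL3* and *ACSL4* were nearest to each other (0.335), but 1918 other genes lay nearer to *ACSL3* and 2689 nearer to *ACSL4*. *ACSS2* and *ACSS3* were likewise nearest to each other within the family (0.42), with 488 and 353 other genes nearer. With 3 lines, such likeness reflects mainly the means of the lines.

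The steps of fatty acid metabolism before and after activation were read from 11 lists with 193 genes, of which 182 were in the table and 151 were tested. The lists were written with earlier results of these data known. Their shares beside those of all genes, and the p-values of genes named from them, are therefore a description and not independent support. Together, 34 of the 151 genes were lower and 9 higher with TBX3iso1 (22.5% and 5.96%), beside 14.1% lower and 7.46% higher (21.5% in all) of the genes tested. With TBX3iso2, 33 were lower and 10 higher (21.9% and 6.62%), beside 12.3% and 8.94% (21.2% in all). Quantile normalization changed the split over all genes with TBX3iso1 from 955 higher and 1802 lower to 1259 and 1313. The median log2 fold change of the listed genes was -0.17 with TBX3iso1 and -0.11 with TBX3iso2.

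In the following accounts, a pair of values is the log2 fold change with TBX3iso1 and then with TBX3iso2, both against EV. Among the other acyl-CoA synthetases, 2 of the 8 tested fell with TBX3iso1 and 3 with TBX3iso2, and 0 rose. *ACSM3*, a medium-chain enzyme, fell with both (-1.46, limma adjusted p = 0.000218, and -0.65, adjusted p = 0.00811). Its TBX3iso2 call was lost without the second EV library (-0.58, adjusted p = 0.076) and in 3 other alternatives. *SLC27A1*, a fatty acid transport protein with synthetase activity, fell with both (-0.87 and -1.07), although with 1 RPKM added the first was -0.52 and no longer called. *AASDH* had values of -0.55 and -0.84, of which the second passed. Of the thioesterases and binding proteins, which release or carry acyl-CoA, 1 of 13 fell with TBX3iso1 (*ACBD7*, -1.18) and 1 rose with TBX3iso2 (*ACOT4*, 0.59). The *ACOT4* call was lost without the second EV library (0.57) or the second TBX3iso2 library (0.52).

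Fatty acid synthesis, elongation and desaturation had 8 of 20 genes lower with each isoform. *FASN*, the fatty acid synthase, averaged 137 ± 16.5 RPKM (SD, n = 2) in the EV line, 34.2 ± 6.56 RPKM in the TBX3iso1 line and 47.5 ± 4.72 RPKM in the TBX3iso2 line. It fell with both isoforms (-2.00, limma adjusted p = 5.85e-05, and -1.52, adjusted p = 0.0002). *SCD*, the main stearoyl-CoA desaturase, fell likewise (-1.82 and -2.04). The polyunsaturated fatty acid desaturases *FADS1* (-1.13 and -1.15) and *FADS2* (-1.56 and -1.53) also fell with both. *HACD4* was the 1 gene of this list that rose, with TBX3iso1 (1.11), and its level there was 0.876 ± 0.131 RPKM. With 1 RPKM added its value was 0.47 and the call was lost.

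Lipid-sensing transcription factors and cofactors showed 5 falls of 11 with TBX3iso1 and 6 with TBX3iso2, and 0 rises. *MLXIPL*, which encodes the carbohydrate response factor ChREBP, averaged 5.33 ± 0.362 RPKM (SD, n = 2) in the EV line, 0.254 ± 0.0319 RPKM in the TBX3iso1 line and 0.608 ± 0.084 RPKM in the TBX3iso2 line. Its values were -3.94 (limma adjusted p = 5.61e-06) and -2.94 (adjusted p = 1.59e-05). *SREBF1* (-1.24 and -1.36), a regulator of fatty acid synthesis, *SREBF2* (-1.02 and -1.51), its counterpart for cholesterol, and *RXRA* (-1.06 and -1.36), the partner of PPAR receptors, fell with both.

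In mitochondrial fatty acid oxidation, 3 of 20 genes fell with TBX3iso1 and 1 with TBX3iso2, and 0 rose. *CPT1B*, a carnitine palmitoyltransferase that passes acyl chains on for oxidation, fell with both (-1.20 and -1.28), and *ACAD10* (-0.74) and *ACAD11* (-0.62) fell with TBX3iso1. The *ACAD11* call was lost without the second EV library (-0.42, limma adjusted p = 0.0787) and in 4 other alternatives. In peroxisomal oxidation, 1 of 15 genes rose and 1 fell with TBX3iso1, and 2 rose and 2 fell with TBX3iso2. *ACOX2*, an oxidase of branched chains and bile acid intermediates, rose with both (1.74 and 1.59). *PHYH*, which acts on phytanic acid, fell with both (-0.96 and -0.61), and its TBX3iso2 call was lost without the second EV library (-0.57, limma adjusted p = 0.0727) and with 1 RPKM added (-0.58). Without moderation neither *PHYH* call passed (adjusted p = 0.0548 and 0.109).

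Uptake, storage and remodelling moved in both directions. *CD36*, a fatty acid transporter, fell with both isoforms (-4.33 and -4.23) from 2.88 ± 0.293 RPKM (SD, n = 2) in the EV line, and its means in the isoform lines were 0.048 and 0.0607 RPKM. *FABP5*, a fatty acid binding protein of epithelia, rose with both (0.97 and 1.22). Of the 5 uptake genes tested, 2 rose and 1 fell with each isoform. In glycerolipid synthesis and lipid droplets, 4 of 25 rose and 4 fell with TBX3iso1, and 3 rose and 5 fell with TBX3iso2. *PLIN5* (-2.99 and -2.34) and *PLIN4* (-1.24 and -1.41), coat proteins of lipid droplets, and *PNPLA2*, the adipose triglyceride lipase (-1.25 and -1.06), fell with both. *G0S2*, an inhibitor of that lipase, rose with both (1.42 and 1.25), as did *GPAT4* (1.44 and 0.77), which takes acyl-CoA for the first step of glycerolipid synthesis. The study's ChIP-array list that holds *ACSS3* also holds *G0S2*. In phospholipid acyl chain remodelling, 3 of 14 fell and 1 rose with each isoform, with *PLA2G6* (-0.80 and -0.96) and *MBOAT2* (-0.63 and -0.70) among the falls. With 1 RPKM added, 0 of the 14 genes passed with TBX3iso1 (*PLA2G6* -0.58 and *MBOAT2* -0.57). The TBX3iso1 call of *MBOAT2* was also lost with median-ratio scaling (-0.57) and quantile normalization (-0.54), and that of *PLA2G6* without moderation.

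The list of mitochondrial fatty acid synthesis and of malonate and propionate handling, the routes of ACSF3 and ACSS3, had 4 falls of 15 with TBX3iso1 and 3 with TBX3iso2, and 0 rises. *MLYCD*, which breaks down malonyl-CoA, had values of -0.64 and -0.15, and the first passed, but not with 1 RPKM added (-0.53) or quantile normalization (-0.48). *MMAB* (-1.18 and -0.92) and *PCCA* (-0.95 and -0.84), both of the propionate route, fell with both isoforms. *ACAT1*, a thiolase of ketone body metabolism, had values of -0.12 and 0.84, and the second passed (limma adjusted p = 0.0018), but not in a linear model without moderation (adjusted p = 0.0602).

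**Figure D4:**
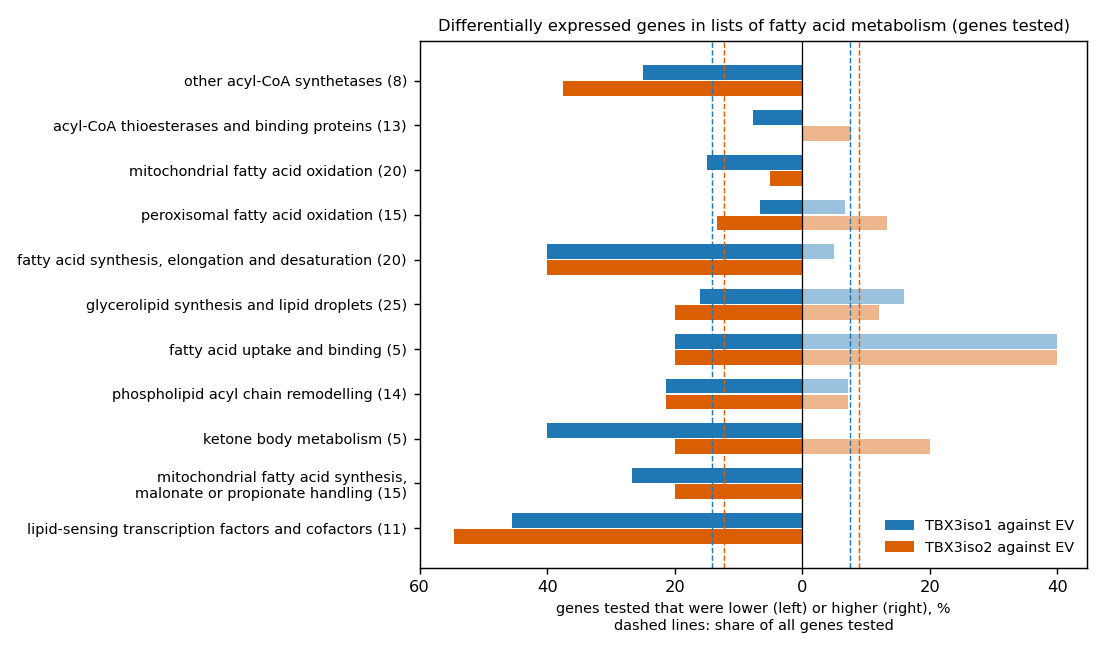
Share of tested genes (horizontal axis, %) of 11 lists of fatty acid metabolism that were differentially expressed against EV, lower to the left and higher (paler) to the right, with TBX3iso1 in blue and TBX3iso2 in orange. Among the lists with over 5 genes tested, fatty acid synthesis (8 of 20 lower with each isoform) and lipid-sensing factors (5 and 6 of 11) reach furthest left, beyond the dashed lines at 14.1% and 12.3% for all genes. The lists were written with earlier results of these data known, so the shares are a description.

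Between the isoforms, 7 of the 151 listed genes were higher and 4 lower with TBX3iso2 (4.64% and 2.65%), beside 3.47% and 2.82% of all genes tested. *ACSM3* was higher with TBX3iso2 than with TBX3iso1 (log2 fold change 0.81, limma adjusted p = 0.0106), as was *ACAT1* (0.96, adjusted p = 0.00401). For *MLXIPL* the difference was 1.00 (adjusted p = 0.00693), or 0.36 with 1 RPKM added. *VLDLR*, a lipoprotein receptor, was lower (-1.32, adjusted p = 0.00148), and so was *GPAT4* (-0.68, adjusted p = 0.00337). In a linear model without moderation none of these 5 passed, with adjusted p from 0.0521 for *VLDLR* and 0.0527 for *GPAT4* to 0.0717 for *MLXIPL*, 0.0936 for *ACSM3* and 0.102 for *ACAT1*. The *ACSM3* and *MLXIPL* calls were also lost with 1 RPKM added, where the *ACSM3* value was 0.50.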

How the data were processed

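Stranded mRNA libraries of 3 lines (2 each) had been sequenced as paired-end reads of 51 bases. Per the study's methods and the labels' processing notes, the authors aligned them to hg19 with TopHat (at most 10 alignments per read) and computed RPKM in Partek; versions and the gene annotation are not given in the sources used here. The deposited values are RPKM on the linear scale, with a line of alignments per library and no counts, so precision comes from the spread between libraries.

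Groups came from sample titles. Values were taken to log2 after adding 0.1 RPKM, and fold changes are on that scale. Of 20824 genes, the 12805 that averaged 0.5 RPKM or more were fitted with limma 3.58.1 in R 4.3.3 (1 mean per line, 6 libraries, trended empirical Bayes, Benjamini-Hochberg over all genes tested). Calls required an adjusted p under 0.05 and over 1.5-fold. The model was tested on simulated data.

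Members and lists were chosen with earlier results of these data known. Named genes are all members, at most 4 genes per list and comparison with the largest called change, the 5 nearest to *ACSL1* and *TBX3*. Some of these genes are given by count only or are not reported here, likewise some of the sequence matches, and *ZDHHC6* and *GGT7*, which overlap members, were added after their values were seen. List symbols were matched to the table, 5 of them through RefSeq synonyms. Positions and upstream sequence are from GRCh37 with GENCODE annotation. Approximate reads are RPKM times alignments times canonical transcript length. Alternatives were other pseudocounts, filters, scalings, samples, a replicate block, no trend, no moderation and leaving out each library.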

Additional observations from a re-analysis of the deposited data

How the results depend on the processing

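Between the isoforms, 1 member was called under each of the 16 alternatives. Over all genes, adding 1 RPKM reduced the calls from 2757 to 1812 with TBX3iso1 and from 805 to 419 between the isoforms. The latter count was 504 with a filter at a mean of 2 RPKM, where fewer genes were tested, and 199 without moderation. The cause was not tested for the other 3 counts. Leaving out 1 library gave 2295 to 3068, 2304 to 3168 and 623 to 919 calls in the 3 comparisons. Of 2487 values of other named genes, 2369 stayed on their side, 92 dropped out and 26 came in, with 0 reversed, and 67 of 528 list counts moved by over 1.5 times.

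Labels number the libraries of a line without saying that a number marks a shared culture or day. The replicate deviations correlated across genes at 0.22 (TBX3iso1 and EV), 0.114 (TBX3iso2 and EV) and 0.499 (the isoforms). With the replicate number as a block, 2838, 2795 and 900 genes were called, and between the isoforms 1 member was, as without the block.

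With 2 libraries a line, outlying libraries could not be tested for, and *ACSL6* and *ACSS1* were too low to compare.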
